A study of Mus musculus with 18 samples.

Results

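CHD8 occupancy in Tregs was described over the CHIP-seq peaks on chromosomes 1 to 19. These peaks numbered 6788 of the 6971 peaks in the table, since the 173 peaks on X and the 10 on Y were set aside. Every autosomal peak was kept, with no filter on its level. Chromatin of splenic Tregs from 2 WT mice, called mouse 1 and mouse 2, was precipitated with an anti-CHD8 antibody, and the table gives 1 value per peak and mouse. The legend of the study names 1 male and 1 female, without saying which column is which. The labels of these samples name CHD8flox/floxFoxp3YFP-Cre/+ as the genotype and Poly IC injection as the treatment, and give no age. The methods of the study name C57B6/J mice for CHIP-seq, and its text elsewhere gives WT mice a Chd8+/+ genotype. Which genotype the 2 mice carried was not settled here. A male has 1 X, so the labelled Foxp3YFP-Cre/+, read literally, cannot hold for the male that the legend names. Foxp3 is X-linked, so in a Foxp3YFP-Cre/+ mouse Cre is made only in those Tregs that use the Cre copy. According to the study, female mice of the labelled genotype carry YFP+ Tregs that lack CHD8 beside YFP- Tregs that have it. The methods describe CD4+CD25+ cells from spleen, isolated on magnetic columns, while a legend adds a sort of YFP+ cells, which mark Foxp3. Which preparation gave the CHIP values was not settled here. Accessibility was taken from ATAC-seq of 1 WT mouse, as the WT value of the ATAC peak that a CHD8 peak overlapped, the highest if several. CHD8 peaks that overlapped no ATAC peak have no ATAC value. The 79800 autosomal ATAC peaks are a union of lists that covers WT and Chd8-/- mice. Some of them may thus have been called in Chd8-/- mice only. RNA levels were taken from YFP+ Tregs of 2 WT mice. The labels of these WT samples name the same genotype and treatment, while the legend gives the WT ATAC mouse as a male.

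CHD8 is a chromatin remodeler of the CHD family, which uses ATP to move nucleosomes. It was first known as a repressor of beta-catenin targets, it also binds p53, and it is found at active promoters together with MLL complexes that methylate histone H3. CHIP-seq counts DNA fragments held by the antibody, so a high value is read as a place where CHD8 was often crosslinked to chromatin. No IgG values were set against it here, so a high value alone does not show this. ATAC-seq counts cuts of a transposase, so a high value marks open chromatin. In a bulk sample, CHD8 in fewer cells and less CHD8 per cell cannot be told apart.

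The deposited values are TPM, in which the reads of a peak are divided by its width and scaled to 1 common total over all peaks of the mouse. The authors dropped peaks seen in a single replicate and then merged the lists. Whether a replicate was a mouse or 1 of the libraries of a mouse is not given, so the presence of a peak in both mice is not read as a result. The values of each mouse were whole multiples of 1 step once multiplied by the peak width, and the reads behind them were recovered. Autosomal peaks held 538263 reads in mouse 1 and 740175 reads in mouse 2, with medians of 71 and 94 reads per peak. No IgG values were analysed here. In the WT RNA libraries the Treg markers Foxp3 (202.8 and 215.4 TPM), Il2ra (924.3 and 889.3 TPM) and Ctla4 (277.6 and 332.8 TPM) were present. Summed levels of other cells were 43.8 and 29.7 TPM for 5 B cell genes, 96.5 and 83.7 TPM for 5 myeloid genes, 37.8 and 23.1 TPM for 2 CD8 T cell genes and 3.2 and 8.2 TPM for 3 NK genes. Erythroid genes summed to 196.5 and 203.8 TPM. These are levels in the RNA libraries and do not measure the cells of the CHIP preparation.

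CHD8 peaks were even in level, and wider than ATAC peaks taken as a whole. Their width ranged from 183 to 2516 bp with a median of 640 bp, against 323 bp for ATAC peaks, and 25% were under 518 bp while 25% were over 796 bp. Only 573 CHD8 peaks (8.44%) reached 1000 bp. ATAC peaks that held a CHD8 peak were wider than CHD8 peaks, with a median of 1054 bp. The level of CHD8 had a median of 140.6 TPM in mouse 1 and 134.1 TPM in mouse 2, and the mean of both mice lay between 100 and 200 TPM in 5711 peaks (84.1%). The ratio of the 90th to the 10th percentile was 1.86 in mouse 1 and 2.21 in mouse 2, against 9.23 for the WT values of ATAC peaks. Width and mean level were nearly unrelated, with a Spearman correlation of 0.0047 over 6788 peaks. The relation was not monotonic: the median level was 150.7 TPM in the decile of narrowest peaks, 130.3 TPM in the fifth decile and 149.5 TPM in the decile of widest peaks. No small class of peaks held most of the reads. The decile of peaks with the highest mean level held 15.4% of the reads in peaks of mouse 1 and 18.9% of those of mouse 2.

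The widest peak was chr17:5044505-5047021 in mm39, with 229.6 TPM in mouse 1 and 223.2 TPM in mouse 2. It lay over an ATAC peak of 30.6 TPM. The next were chr12:76415899-76417915 (164.6 and 180.6 TPM), chr4:8690086-8692005 (191.5 and 133.1 TPM), chr4:46450725-46452592 (208 and 262 TPM) and chr1:13443004-13444774 (143.7 and 191.4 TPM). All of these 5 widest peaks were above the median level in both mice except the chr4:8690086-8692005 peak, which at 133.1 TPM fell just under the median of mouse 2. Each of them overlapped an ATAC peak, of 15.7 to 50.6 TPM.

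The strongest peaks stood far above the rest. Only 78 peaks (1.15%) had a mean above 300 TPM. The highest was chr18:3542311-3542658, a peak of 347 bp with 1349.6 TPM (381 reads) in mouse 1 and 1200.9 TPM (460 reads) in mouse 2. It overlapped no ATAC peak, and the nearest one lay 33948 bp away. The second was chr4:7391637-7391902, of 265 bp, with 1071.4 and 837.6 TPM. The third was chr11:3140617-3140800, of 183 bp, with 832.9 and 935.6 TPM and no ATAC peak. No difference between the mice was called in these 3 peaks (adjusted p = 0.24, 0.053 and 0.66, exact binomial test of the reads, described below). Short peaks were frequent among the strongest ones by TPM, which divides by width, so that a short peak ranks high with fewer reads. Peaks under 300 bp made up 61 of all peaks (0.899%) and 10 of the 78 peaks above 300 TPM (12.8%). These short peaks had a median of 206.1 TPM but held fewer reads than most, with a median of 46 in mouse 1 and 56 in mouse 2. Over all autosomal peaks the medians were 71 and 94 reads. Only 30 of the 61 short peaks (49.2%) lay over an ATAC peak. Whether IgG was also high at the strongest or the short peaks was not tested. Wide and strong peaks were found too. The chr19:3817645-3818946 peak of 1301 bp had 629.2 TPM in mouse 1 and 1104.4 TPM in mouse 2, and the chr19:59333350-59334684 peak of 1334 bp had 729.7 and 630.2 TPM. Both lay wholly within ATAC peaks, of 30.2 and 34.3 TPM.

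At the other end, 53 peaks (0.781%) were under 20 TPM in both mice, and 20 of them had 0 reads in both. A count of 0 allows up to 3 reads, which is 2.80 to 17.2 TPM for these peaks by width and mouse. The weak peaks were not spread evenly. When neighbours up to 500 kb apart were joined, 28 of the 53 (52.8%) fell into 5 groups of 3 or more. The groups were chr3:96145863-96396070 with 7 weak peaks, chr6:47632923-47740282 with 7, chr14:69521645-69847008 with 6, chr1:170899911-170908768 with 4 and chr8:55576042-55827283 with 4. In the chr14, chr1 and chr8 groups every CHD8 peak of the span was weak, while the chr3 and chr6 spans held 11 and 10 CHD8 peaks. ATAC peaks lay at 28 of the 53 weak peaks (52.8%). Of the 20 peaks with 0 reads, 14 overlapped an ATAC peak, and that peak was listed at 0 in WT ATAC in 9 of them. The values that the authors' peak caller saw at these places were not analysed here.

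Whether the mice agreed was asked first of the order of the peaks. Over 6788 peaks the levels as log2(TPM + 1) had a Pearson correlation of 0.84 and a Spearman correlation of 0.56, given as a description. In the 5711 peaks with a mean of 100 to 200 TPM the values were 0.29 and 0.32. This range is set by the mean of the same values, which lowers a correlation by itself. Both were higher off ATAC peaks (0.92 and 0.69 over 1017 peaks) than over them (0.80 and 0.52 over 5771 peaks), where the mean level also varied less (SD 45.8 TPM against 65.5 TPM off them). The log2 ratio of the mice itself spread more off ATAC peaks, with an SD of 0.42 against 0.37. Of the 678 highest peaks of mouse 1, 336 (49.6%) were also among the 678 highest of mouse 2, and of the 678 lowest, 338 (49.9%) were shared. The spread of the mice was set beside the counting error. The SD of the log2 ratio of the mice was 0.43 in the quintile with the fewest reads, where counting alone gives 0.35, and 0.35 in the quintile with the most reads, where counting alone gives 0.17.

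The reads of each peak were then compared between the mice by a two-sided exact binomial test against the share of mouse 1 in all reads in autosomal peaks, with Benjamini-Hochberg adjustment over 6788 peaks. It compares these 2 mice, each given as 1 column, and covers counting error only. A difference was called at an adjusted p-value of 0.05 in 660 peaks (9.72%), 302 (4.45%) higher in mouse 1 and 358 (5.27%) higher in mouse 2. The split depended on the scaling: 54.2% of the calls were higher in mouse 2 with the total reads, and 68.1% (472 of 693) when the median ratio of the mice was set to 1, from a median log2 ratio of mouse 2 to mouse 1 of -0.06 with the total reads. Called differences were mostly modest, with a median size of 0.72 on the log2 scale, and 60 of 660 were over 1.

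**Figure D1:**
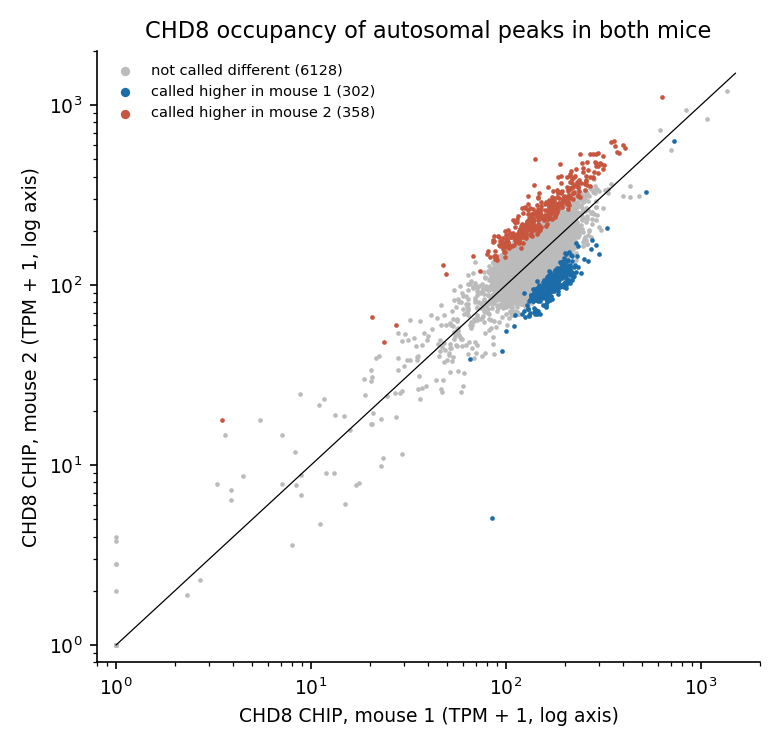
CHD8 CHIP level (TPM + 1, log axes) of the 6788 autosomal peaks in mouse 1 and mouse 2, 1 point per peak, with the line of equal values. Most points lie near 100 to 200 TPM in both mice, the 302 peaks called higher in mouse 1 and the 358 called higher in mouse 2 lie on either side, and a thin tail runs down to 0.

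The direction of the difference moved with chromatin accessibility. Mouse 2 was above mouse 1 in 268 of 1017 peaks off ATAC peaks (26.4%), in 2817 of 5771 peaks over an ATAC peak (48.8%) and in 1860 of the 3067 peaks over an ATAC peak of the top WT decile (60.6%). Calls followed the same order. Off ATAC peaks 81 peaks (7.96%) were called higher in mouse 1 and 6 (0.590%) higher in mouse 2, against 4.45% and 5.27% of all peaks. Over top-decile ATAC peaks 60 (1.96%) were higher in mouse 1 and 275 (8.97%) in mouse 2. Over the 5771 overlapping peaks the log2 ratio of mouse 2 to mouse 1 correlated with WT ATAC level at a Spearman value of 0.32. In the CHD8 decile with the highest mean level, 192 of 679 peaks (28.3%) were called higher in mouse 2 and 11 (1.62%) higher in mouse 1. That decile was set by the mean of the same values, so it is no independent comparison. The sex of the mice, the share of reads outside peaks and the genotype were not known per column, and their part in this difference was not tested.

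Single peaks differed strongly. The chr9:123290900-123291226 peak had 139.5 TPM (37 reads) in mouse 1 and 503 TPM (181 reads) in mouse 2 (adjusted p = 4.6e-12, exact binomial test), over an ATAC peak of 79.3 TPM. The chr13:103910378-103911198 peak had 238.3 and 531.4 TPM (adjusted p = 2.0e-16, exact binomial test). The chr19:3817645-3818946 peak named above gave the smallest adjusted p (8.4e-31, exact binomial test), since it held 666 reads in mouse 1 and 1586 in mouse 2. In the other direction, the chr6:47659158-47659378 peak had 83.8 TPM (15 reads) in mouse 1 and 4.1 TPM (1 read) in mouse 2 (adjusted p = 0.0012, exact binomial test), and it lay within the span of the weak peaks of chromosome 6. The other differences toward mouse 1 were smaller, with a log2 ratio of -1.12 in chr2:28336544-28337307 (148.2 and 67.7 TPM) and of -1.09 in chr7:66489559-66490366 (158.4 and 74.1 TPM). The largest ratio toward mouse 2 was in a weak peak, chr8:66163257-66164234, with 2 and 18 reads. Of the 10 peaks with the largest differences toward mouse 1, 7 overlapped an ATAC peak, and of the 10 toward mouse 2, 9 did. Among all peaks 85.0% did, and sets of 10 are too small to tell these shares apart.

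CHD8 lay mostly at ATAC peaks, which were listed over WT and Chd8-/- mice together. Of 6788 peaks, 5771 (85.0%, exact binomial interval 84.1% to 85.9%, counting error only) overlapped an ATAC peak by 1 bp or more, of which 196 overlapped 2 or more. The fit of the places was close. The centres of the CHD8 peak and of its ATAC peak were a median of 90.5 bp apart, 80.5% of them lay within 200 bp, and the CHD8 centre lay inside the ATAC peak in 5567 of 5771 peaks (96.5%). At least 75% of the overlapping CHD8 peaks were covered in full. Seen from the ATAC side, only 5904 of 79800 peaks (7.40%) held a CHD8 peak, and 4309 of these (73.0%) were in the top 2 deciles of WT ATAC level.

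The share of ATAC peaks with CHD8 rose steeply with accessibility, though not from the lowest level. It was 37.9% in the highest WT ATAC decile, 16.1% in the ninth, 5.41% in the eighth and 1.27% in the fifth, where it was lowest. In the lowest decile it was 3.70% (exact binomial interval 3.29% to 4.13%), above the 1.27% (1.03% to 1.54%) of the fifth. ATAC peaks with a low WT value may include some that were called in Chd8-/- mice only. The level of CHD8 rose less than the share. Its median went from 127.2 to 146.8 TPM in mouse 1 and from 106.6 to 153.4 TPM in mouse 2 between the lowest and the highest decile, so that the order of the mice changed in the top decile. Over 5771 peaks the Pearson correlation of CHD8 and WT ATAC levels as log2(TPM + 1) was 0.29 in mouse 1, 0.45 in mouse 2 and 0.39 for their mean. Both values divide by peak width, which the overlapping peaks share in part.

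**Figure D2:**
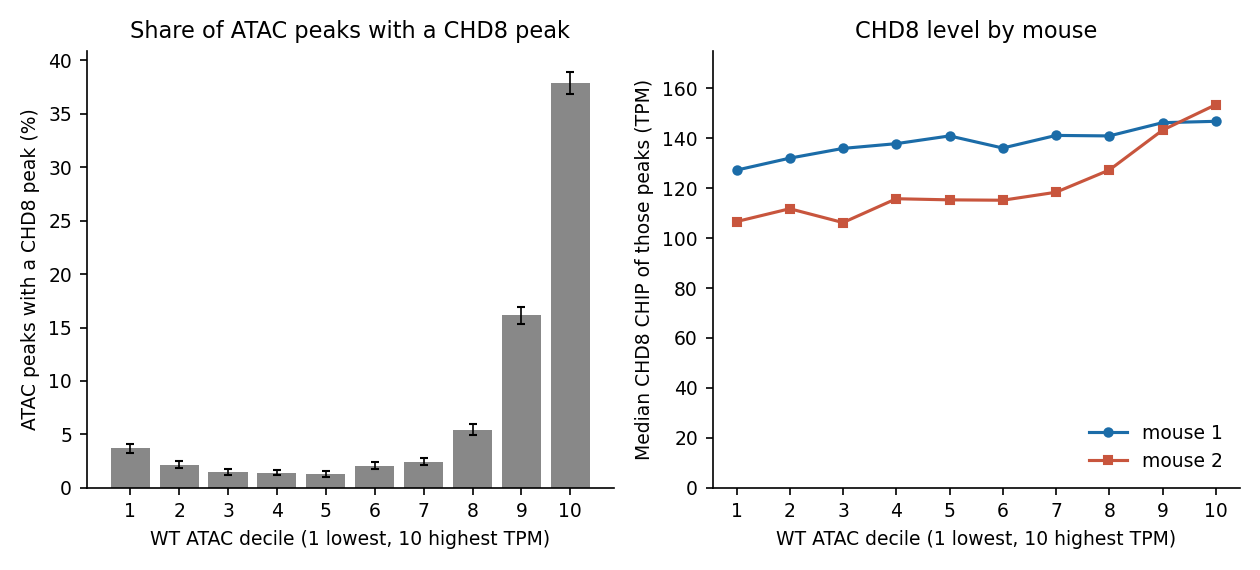
Left, percent of ATAC peaks that overlap a CHD8 peak in each decile of WT ATAC level, with exact 95% binomial intervals (7980 ATAC peaks per decile). Right, median CHD8 CHIP level (TPM) of the overlapping peaks in mouse 1 and mouse 2. The share is 3.70% in the lowest, 1.27% in the fifth and 37.9% in the highest decile, and the line of mouse 2 climbs from 106.6 to 153.4 TPM while that of mouse 1 climbs from 127.2 to 146.8 TPM.

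Width of the open region went with CHD8 as well. ATAC peaks with CHD8 had a median width of 1054 bp, and those without had one of 305 bp. Within the top WT ATAC decile, where the medians of WT ATAC level were 37.9 TPM with CHD8 and 35.2 TPM without, the share with CHD8 rose with width. It was 41 of 1581 (2.59%) under 500 bp, 187 of 1199 (15.6%) from 500 bp, 659 of 1839 (35.8%) from 750 bp, 1660 of 2714 (61.2%) from 1000 bp and 475 of 647 (73.4%) from 1500 bp. Median WT ATAC level over these width classes ran from 33.3 to 38.1 TPM. A wider ATAC peak also offers more bases to overlap, and the part of that was not tested. The widths of the CHD8 peak and of its ATAC peak had a Spearman correlation of 0.44.

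Seen from the CHD8 side, the overlap rose with CHD8 level. It was 334 of 679 peaks (49.2%) in the lowest CHD8 decile, 75.7% in the second, 89.1% in the fifth and 95.9% in the highest, and the median WT ATAC level of the overlapped peaks went from 12.1 to 34 TPM. Of the 7980 ATAC peaks in the top decile, 4958 held no CHD8 peak and so have no CHD8 value. Among the CHD8 peaks over the others, the lowest were chr14:79663924-79664730 with 70.1 and 62.9 TPM, chr17:3607572-3608163 with 79 and 79.7 TPM, chr3:40848229-40849032 with 70.4 and 90.3 TPM, chr1:177810800-177811600 with 63 and 100.8 TPM, and chr13:12272476-12273111 with 89 and 75.6 TPM. The mice were not called different in any of these 5. The 1017 peaks off ATAC peaks were lower, with medians of 122.8 TPM in mouse 1 and 103.2 TPM in mouse 2 against 143.3 and 139.8 TPM over ATAC peaks. They lay a median of 28761 bp from the nearest ATAC peak, 316 of them (31.1%) within 10 kb and 298 (29.3%) more than 100 kb away. Their width was close to that of the others, with a median of 603 bp against 647 bp.

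**Figure D3:**
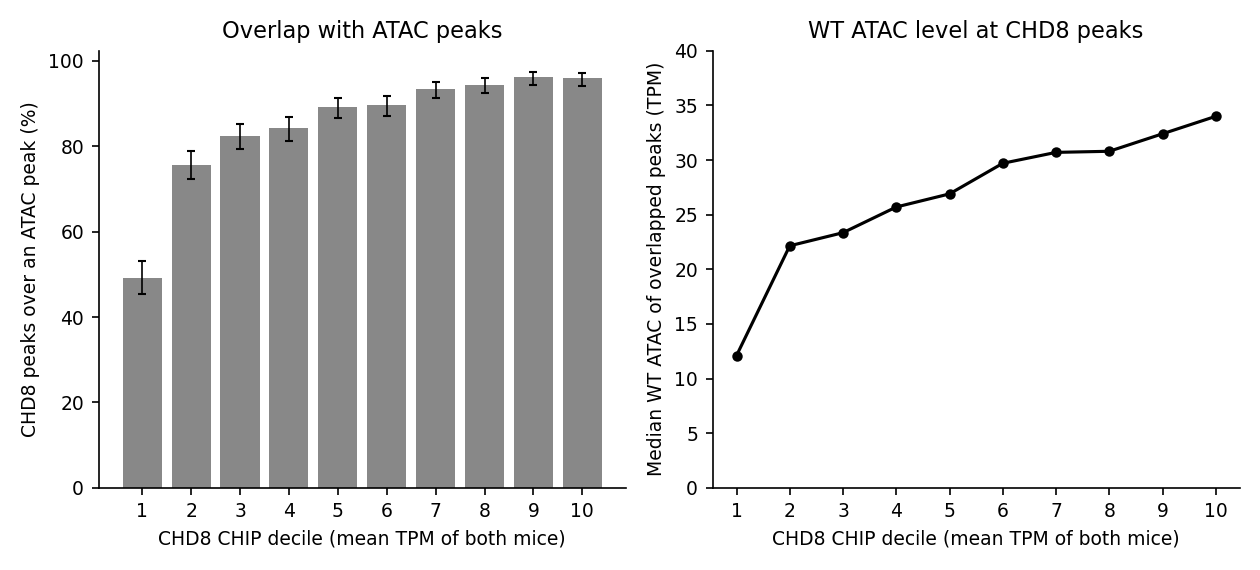
Left, percent of CHD8 peaks over an ATAC peak by decile of mean CHD8 CHIP level (678 or 679 peaks each), with exact 95% binomial intervals. Right, median WT ATAC level (TPM) of the overlapped ATAC peaks. The overlap goes from 49.2% to 95.9% and the ATAC level from 12.1 to 34 TPM, with the largest step between the lowest deciles.

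CHD8 peaks stood mostly alone. The gap between neighbours had a median of 125561 bp, 363 of 6769 gaps (5.36%) were up to 10 kb and 596 (8.80%) were over 1 Mb. For ATAC peaks the median gap was 6542 bp, and for the 7980 ATAC peaks of the top WT decile, a set of like size, it was 62502 bp with 22.3% of gaps up to 10 kb. Clusters, taken as 3 or more peaks with gaps of at most 10 kb, held 72 CHD8 peaks (1.06%) in 21 clusters. They held 17.8% of the top-decile ATAC peaks and 64.0% of all ATAC peaks. None of the 1017 CHD8 peaks off ATAC peaks formed a cluster among themselves, but this set is sparse, with a median gap of 1357220 bp. Of the 5771 peaks over ATAC peaks, taken alone, 1.09% were in clusters. Gaps up to 1 kb numbered 130, and in 67 of these pairs both peaks lay over the same ATAC peak. Peaks of such close pairs were alike in level, with a median difference of 0.16 in log2 mean TPM, against 0.32 for neighbours over 100 kb apart. CHD8 neighbours that overlapped, and so share bases, numbered 6. Some close pairs were at 0 TPM in both peaks, as within chr1:170899911-170908768. The part of either in this likeness was not tested.

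**Figure D4:**
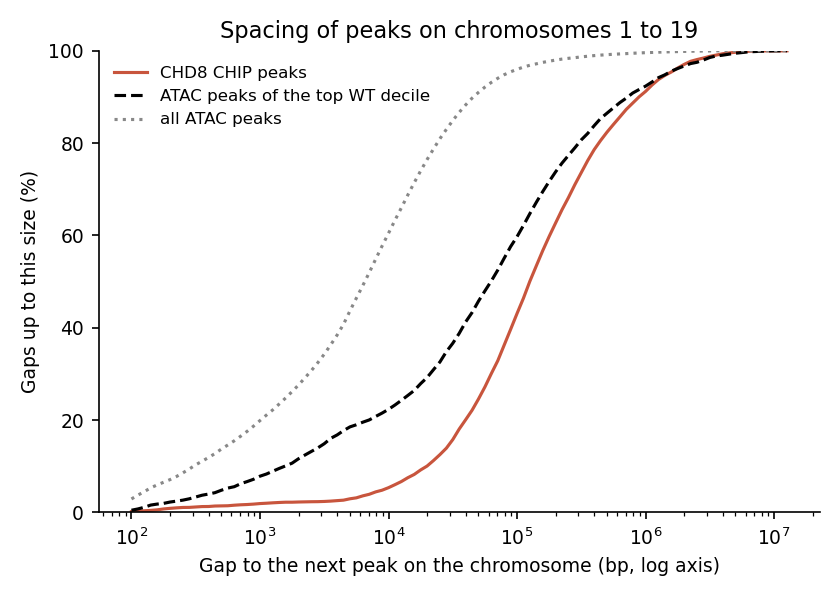
Percent of gaps between neighbouring peaks up to a given size (bp, log axis) for CHD8 CHIP peaks, all ATAC peaks and ATAC peaks of the top WT decile. The curve of CHD8 peaks stays low up to 10 kb, where it reaches 5.36%, while top-decile ATAC peaks reach 22.3% and all ATAC peaks 60.5%.

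The largest cluster was on chromosome 6 at chr6:47716551-47740282, with 7 peaks in 23.7 kb. It was mostly weak, with means of 0 to 63.1 TPM and a median of 6.9 TPM, and 3 of its peaks had 0 reads in both mice. The chr1:170899911-170908768 cluster held 4 peaks that were all at 0 in both mice and in WT ATAC, and the 4 peaks of chr3:96145863-96154609 had a median of 16.3 TPM. The chr11:106669949-106680332 cluster was above the autosomal median of 138.0 TPM throughout, with 4 peaks of 145.4 to 241.2 TPM, all over ATAC peaks. Others were near that median. The chr2:18044437-18070511 cluster had 4 peaks of 117.8 to 154.6 TPM and the chr6:83078496-83099341 cluster had 4 of 110.9 to 151.7 TPM. The most compact ones spanned about 2 kb, as chr5:43390334-43392608 with 3 peaks of 189 to 273 TPM, chr3:52010313-52012589 with 3 of 149.3 to 217.5 TPM and chr14:62997283-62999154 with 3 of 168.2 to 240.6 TPM.

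Along the genome, chromosomes with more ATAC peaks had more CHD8 peaks. Over 19 chromosomes the number of CHD8 peaks correlated with that of ATAC peaks at a Spearman value of 0.96, with that of protein-coding genes (RefSeq, GRCm38.p6, numbers only) at 0.92, and with the span from the first to the last ATAC peak at 0.76, given as a description. The mean density was 2.83 peaks per Mb, from 1.94 on chromosome 14 to 4.55 on chromosome 11. Per 100 ATAC peaks it ran from 7.04 on chromosome 14 to 11.04 on chromosome 4. In windows of 1 Mb, the richest were at 80 to 81 Mb of chromosome 10 with 23 peaks, at 70 to 71 Mb of chromosome 8 with 22, and at 120 to 121 Mb of chromosome 11 and 155 to 156 Mb of chromosome 4 with 20 each. Windows with 10 or more peaks numbered 112 and held 20.7% of CHD8 peaks. No CHD8 peak was listed in 384 of the 2096 windows with an ATAC peak (18.3%). The longest stretch without one was 12.7 Mb, chr15:12740034-25413613, which held 25 ATAC peaks, followed by 11.9 Mb at chr14:87378781-99283012 with 20.

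**Figure D5:**
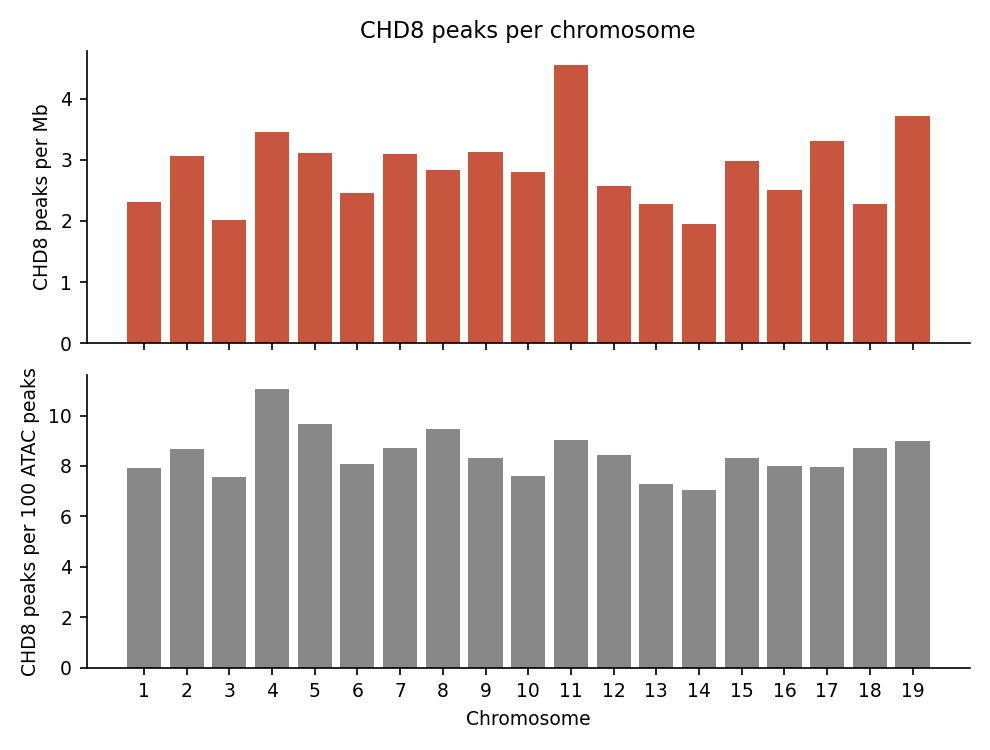
CHD8 peaks per Mb of the span from the first to the last ATAC peak (top) and per 100 ATAC peaks (bottom) on chromosomes 1 to 19, with 1 bar per chromosome. Density per Mb is lowest on chromosome 14 (1.94) and highest on chromosome 11 (4.55), and the bars per 100 ATAC peaks are more alike, from 7.04 on chromosome 14 to 11.04 on chromosome 4.

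The study assigned CHD8 peaks to genes of mTOR signaling, and 21 of those peaks are autosomal. The assignment was chosen by the study on these samples and reaches far along the chromosome, so it is no independent support. The 11 peaks assigned to Hspa5, which encodes the endoplasmic reticulum chaperone BiP, spread over 908 kb of chromosome 2. Their means ran from 112.6 to 192.8 TPM, and 10 lay over ATAC peaks. The chr2:35090315-35091131 peak was the highest, with 149.1 TPM in mouse 1 and 236.5 TPM in mouse 2, and was called higher in mouse 2. The 4 peaks of Cdkn1a, the cell cycle inhibitor p21, lay over ATAC peaks of 24.3 to 40.2 TPM. The highest of them was chr17:29251195-29252004 with 179.3 and 217.2 TPM. The 3 peaks of Fgl2, which encodes a secreted protein of Tregs with inhibitory action, included chr5:21906230-21906883 with 124.2 and 270.5 TPM, called higher in mouse 2. The single peak of Bhlhe40, a transcriptional repressor, was chr6:108636304-108636888 with 149.4 and 108.6 TPM. Of the 2 peaks of Ccng1, or cyclin G1, 1 had 113.2 and 173.9 TPM over an ATAC peak of 47 TPM, and 1 at chr11:41780327-41780856 had 86 and 114.7 TPM with no ATAC peak within 1113770 bp. The median of the 21 peaks was 143.6 TPM, against 138.0 TPM over all autosomal peaks, and 2 of 21 were called different against 9.72% of all peaks. WT RNA levels of these genes differed widely. Hspa5 was at 255.6 and 246.9 TPM and Ccng1 at 211.1 and 223 TPM, while Cdkn1a was at 0.2 and 0.3 TPM.

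Genes that the study lists as bound by CHD8 in both Tregs and blood progenitors were set beside WT RNA and promoter sequence. This list was made by the study in part from these CHIP samples, and it does not say where a peak lies. It leaves out the genes that the study found bound in Tregs only, which are the larger part. A gene off the list may thus still be bound, as Cdkn1a, Bhlhe40, Ccng1 and Fgl2, which have assigned peaks above and are not listed. The shares below are shares of this list and do not measure how much of a group CHD8 binds in Tregs. Of its genes, 1046 were matched in the RNA table. RNA was present for most of them: 971 (92.8%) and 962 (92.0%) had at least 1 TPM in the 2 WT libraries, against 13927 and 14142 of the 34819 other genes. Among genes with a mean of at least 1 TPM, 2.15% of the lowest RNA decile and 8.54% of the highest were listed, against 6.34% of all of them, and from the fifth decile upward the share lay between 7.05% and 8.54%. In the fixed gene groups, the share listed ran from 0 to 14.8%, and the groups are small. Listed were 4 of 27 T cell receptor signalling genes (14.8%; Nfatc3, Bcl10, Malt1 and Nfatc2), 2 of 39 Treg identity genes (5.13%; Tgfb1, the suppressive cytokine, and Foxo3), 5 of 48 genes of PI3K, Akt and mTOR signaling (10.4%; Rheb, the GTPase that turns on mTORC1, Pik3r1, Lamtor1, Rptor and Tsc1), 2 of 30 p53 pathway genes (6.67%; Mdm2, which degrades p53, and Perp), and 3 of 39 Wnt pathway genes (7.69%; Gsk3a, Axin1 and Fzd7). Of the 9 CHD family genes, Chd8 itself was the only one listed, at 24.7 and 27.6 TPM. Further listed genes were 2 of 18 MLL complex genes (Dpy30 and Wdr5), 5 of 50 replication and cell cycle genes, 8 of 83 ribosomal protein genes (9.64%), 2 of 76 mitochondrial ribosomal protein genes (2.63%), 6 of 85 respiratory chain genes, 4 of 39 proteasome genes (10.3%), 7 of 68 histone genes (10.3%) and 25 of 343 zinc finger genes. None of 1097 olfactory receptor genes was listed, of which 20 had a mean of at least 1 TPM. None of 19 aminoacyl-tRNA synthetase genes and 22 markers of other cells was listed either, and groups of this size hold few genes at a share of 6.34%.

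Promoters of listed genes were rich in CpG. RefSeq promoters of GRCm38.p6, running from 250 bases before to 50 bases after the start site, were found for 888 listed genes on the autosomes, in the RNA table or not, and the first promoter listed for a gene was used. They held a median of 26 CpG in 300 bases, against 21 in 8914 promoters of protein-coding genes with at least 1 TPM in WT RNA and 7 in all 25748. The SP-type motif GGGCGGG on either strand was in 57.2% of listed promoters, in 46.3% of those with RNA and in 26.1% of all. The CTCF-type motif AGGGGGC was in 20.6%, 15.6% and 10.6%. The ETS-type motif CCGGAAG went the other way against promoters with RNA, with 16.2% against 19.6%, and 9.29% of all. So did the CRE motif TGACGTCA (2.03% against 3.35%), the AP-1 motif TGANTCA (4.05% against 4.98%) and the RUNX motif TGTGGTT (2.93% against 3.76%). TATAAA was in 6.31%, 7.55% and 14.2%. Shares for NRF1 (GCATGCGC, 5.07% against 5.64%) and E-box (CACGTG, 9.35% against 10.1%) were also slightly lower in listed promoters than in those with RNA. The YY1 motif AAGATGGC was higher in listed promoters, with 5.97% against 4.87%. The GABPA motif GCGGAAGT, which like CCGGAAG is of the ETS type, was nearly equal, with 4.62% against 4.63%. GGGCGGG holds a CpG itself, and median GC content was 64.3% in listed promoters and 60.3% in those with RNA. The part of CpG and GC content in the share of GGGCGGG, or of any other motif, was not tested. No peak was placed on these promoters, since peaks are in mm39. To show what the most frequent of the longer motifs looks like in place, 30 bases around the first GGGCGGG or its reverse complement before the start site are given 5′ to 3′ on the strand of the gene, with the motif in capitals, for the listed gene with a promoter, such a match and the highest RNA in 8 of the gene groups:
Chd8: tggagggcggtGGGCGGGcccaggcgcatg
Tgfb1: aggccggggtgCCCGCCCcctccccgcagg
Mdm2: ggccgctaagcCCCGCCCcccgcctcctat
Gsk3a: agccgtcacacCCCGCCCccagcagtcagc
Pik3r1: ccccgagccggGGGCGGGggcgagggcagc
Mki67: tggtttgaatcGGGCGGGctgcggcgggcg
Rpl14: ctggacgtcggGGGCGGGgcttctgccgac
Psmd8: tgactacaggtGGGCGGGacattgtgggca
In GRCm38.p6 the window of Chd8 is chr14:52257797-52257826 on the minus strand, 55 bases before the start site, and that of Tgfb1 is chr7:25686826-25686855 on the plus strand, 165 bases before it. The window of Mdm2 is chr10:117710829-117710858 (minus), that of Gsk3a chr7:25237903-25237932 (minus), that of Pik3r1 chr13:101768389-101768418 (minus), that of Mki67 chr7:135716451-135716480 (minus), that of Rpl14 chr9:120571458-120571487 (plus) and that of Psmd8 chr7:29180714-29180743 (minus). All lie upstream of the annotated start site. Promoters of Foxo3 and Pik3r1 held 4 matches each, and those of Nfatc3, Rheb, Bcl10 and Dpy30 held 0 in this window.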

How the data were processed

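CHIP-seq of splenic Tregs of 2 WT mice was analysed with the WT column of ATAC-seq (1 mouse) and 2 WT RNA-seq libraries. Per the labels and the methods of the study, the authors trimmed reads with Trim Galore 0.6.7 and cutadapt 3.5, used HISAT2 and mm39 for alignment and sambamba against duplicates, then ran MACS2 2.2.7.1. Peaks were combined at an overlap of at least 50%, those seen in 1 replicate only were dropped, a union was taken, and the authors counted reads with featureCounts 1.5.3. The deposited values are TPM over peaks, rounded to 0.1. RNA-seq TPM was made by the authors with STAR 2.6.1e on mm10. The labels name 2 libraries per CHIP and ATAC mouse, and how they were joined into 1 column is not given in the sources used here. CHIP mice served as replicates. TPM divides by width and by all reads in peaks, so that values are relative to the peak set of the mouse. Depth outside peaks is not given in the sources used here, and the depth behind ATAC and RNA values was not derived.

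Whole reads (or read pairs) were recovered from the common step of TPM times width, and all 6971 peaks in both mice were within rounding of whole reads. CHIP and ATAC peaks were overlapped with bedtools 2.31.1, and coordinates are those of the file, in mm39. Shares have exact Clopper-Pearson 95% intervals where given, which cover counting error only. Mice were compared by exact binomial tests in scipy 1.17.1 with Benjamini-Hochberg adjustment, after a check on simulated counts. Scripts ran in Python 3.11.15 with pandas 2.3.3, numpy 2.4.6 and matplotlib 3.10.9. The named peaks are the 10 highest not called different, up to 10 called in each direction with the largest difference, the 5 widest, the 5 clusters with the most peaks, the 5 highest and 5 lowest CHD8 values over the top ATAC decile, and peaks and list genes of the fixed lists. Examples are given from each. The 3 compact clusters, the groups of weak peaks and the short peaks were singled out after their values were seen. The members and lists were chosen with earlier results of these data known. Gene annotation of mm39 was not used here, so peaks were not placed on genes. List genes were matched by symbol or a single synonym: 1001 by symbol, 1046 in all, and 23 not. Promoters matched 84.8% of the autosomal protein-coding list genes and 81.4% of those with RNA.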

Additional observations from a re-analysis of the deposited data

How the results depend on the processing

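The number of peaks called different between the mice was 282 at an adjusted p of 0.01, against 660 at 0.05, and it stayed within 1.5 times with the median ratio (693), at least 20 reads (659) and Fisher's exact test (660). The Pearson correlation of the mice was 0.79 with log2(TPM + 10), 0.76 over peaks with reads in both mice and 0.61 over peaks at or above the median reads, against 0.84. The share of CHD8 peaks over an ATAC peak was 82.6% when 50% of the peak had to be covered and 74.2% with ATAC peaks at or above the median, against 85.0%. The correlation with WT ATAC ranged from 0.29 to 0.45 with 1 mouse left out and was 0.36 with a pseudocount of 10 TPM. The difference of the medians over and off ATAC peaks ranged from 20.5 to 36.6 TPM with 1 mouse left out, and was 26.2 TPM at 50% cover, against 27.4 TPM. Clusters held 0.354% of peaks with a gap of 5 kb, 6.04% with 25 kb and 0.736% among peaks at or above the median level, against 1.06%. Chosen after seeing the data, the SP-type motif was in 62.5% of list genes when any promoter counted, and the share of list genes at 1 TPM or more was 92.9% for the mean of the WT RNA libraries and ranged from 92.0% to 92.8% with 1 library left out. Of 21 alternatives, 8 were labelled as the same as the main value and 13 as moved. Most of the moved ones still lay within 1.5 times of the main value. Beyond it lay only the calls at an adjusted p of 0.01 and the clusters at 5 kb and 25 kb. None turned a direction, and the cause of the moves was not tested. The distance of peaks to start sites, RNA levels of genes with a peak at the start site and motifs within peaks were planned with their alternatives and were not run, since an mm39 genome and annotation were not used here. No paired analysis was possible because the test compares the 2 mice of a single group.

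With 2 CHIP mice and 1 ATAC mouse, no difference between conditions can be read from these values, and the median of 71 and 94 reads per peak limits what a single peak can show. IgG values were not analysed here.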

Other observations

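On X, the median CHD8 level of 173 peaks was 121 TPM in mouse 1 and 107.9 TPM in mouse 2, which is 0.861 and 0.805 of the autosomal medians. The 10 peaks on Y all lay between 90755450 and 90835738. Of these, 4 were above 100 TPM in both mice, as chrY:90755450-90756118 with 338.6 TPM in mouse 1 and 273.9 TPM in mouse 2 and chrY:90814430-90814667 with 274.9 and 256.1 TPM, and 4 were under 10 TPM in both. In the first 2 Mb of Y, 12 ATAC peaks were listed with 1.5 to 24.9 TPM in WT ATAC and 0 CHD8 peaks. The legend names 1 of the CHIP mice as a female, so the 10 CHD8 peaks are not read as binding specific to Y. Where their reads came from was not tested.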
